A study of Mus musculus with 2 samples.

Results

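The clustered protocadherins are a family of neuronal cell-surface proteins encoded side by side on mouse chromosome 18, in an alpha, a beta and a gamma subcluster. The 58 members were taken by name: 12 alpha genes (Pcdha1 to Pcdha12), 22 beta genes (Pcdhb1 to Pcdhb22), 19 gamma genes (12 of the Pcdhga and 7 of the Pcdhgb type) and 5 C-type genes (Pcdhac1, Pcdhac2, Pcdhgc3, Pcdhgc4 and Pcdhgc5). All lie on the plus strand, and 57 of them are among the 21938 protein-coding genes of the GENCODE annotation used, in which Pcdhgb8 is a polymorphic pseudogene. The window examined around them, chromosome 18 from 36870000 to 37902000 on mm10, held 58 of the 62686 CTCF peaks of the optimal set, or 56.2 peaks per Mb against 23.8 per Mb over the autosomes and X.

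CTCF binding was mapped by ChIP-seq, with an antibody against CTCF, in hindbrains of B6NCrl mice on postnatal day 0, whose sex was not collected. Tissue from several dissections was pulverised and pooled, and both libraries, numbered 1 and 2, name that same pool. Differences between them can therefore be technical. They form 1 group with no second condition, and the report therefore describes the members without tests. Peak lists carry no expression, so the tissue label was not checked against markers here.

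In the alpha and gamma subclusters each gene has its own promoter and a long first exon, which is spliced to constant exons shared by the whole subcluster, while beta genes consist of their own coding exon alone. A neuron uses a small, largely random choice of these promoters, which gives its surface an identity for self-avoidance, whereas C-type promoters are used more broadly. CTCF, a zinc finger protein that binds a directional motif, and the cohesin complex fold chosen promoters onto enhancers that lie beyond the alpha constant exons and beyond the gamma subcluster. Earlier work in mouse describes a conserved element holding a CTCF site in the promoters of nearly all members, with Pcdhac2, Pcdhb1, Pcdhgc4 and Pcdhgc5 as the exceptions, and a further CTCF site inside the first exons of alpha genes.

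Most members carried CTCF at their promoter. A summit of the optimal set lay within 1 kb of an annotated start in 43 of 58 members (74.1%, 95% Wilson interval 61.6 to 83.7), where 39.8% of all protein-coding genes had one. The interval covers counting error only, and members are neighbours with related sequence, not independent draws. By subcluster, 17 of 19 gamma members (89.5%, 68.6 to 97.1), 9 of 12 alpha members (75%, 46.8 to 91.1), 14 of 22 beta members (63.6%, 43.0 to 80.3) and 3 of 5 C-type members (60%, 23.1 to 88.2) were occupied. These intervals overlap, and the order of the subclusters was not tested. Among gamma genes, all 7 Pcdhgb and 10 of 12 Pcdhga members were occupied. The 43 members had 43 different strongest peaks, so no occupied member was counted through a neighbour's peak.

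The peaks at these promoters were mostly in the weaker part of the optimal set. Signal is the peak caller's own value, whose scale is not stated, and its median over the strongest promoter peaks of the 43 occupied members was 42.6, with a range from 20.5 to 398.4. Over all occupied protein-coding genes the same median was 75.4, and over the whole optimal set it was 73.9. Peaks within 300 bp of a principal start had a median of 43.6 at members and 59.6 at other protein-coding genes. The strongest promoter peak was below the median of the optimal set in 35 of the 43 occupied members. Among the 31343 strongest optimal peaks, only 8 of the 58 members (13.8%) kept a promoter peak, where 20.2% of protein-coding genes did. Those 8 comprised 6 gamma and 2 C-type members, and no alpha or beta member. In bulk tissue, binding in few cells and weak binding in many cells cannot be told apart.

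**Figure D1:**
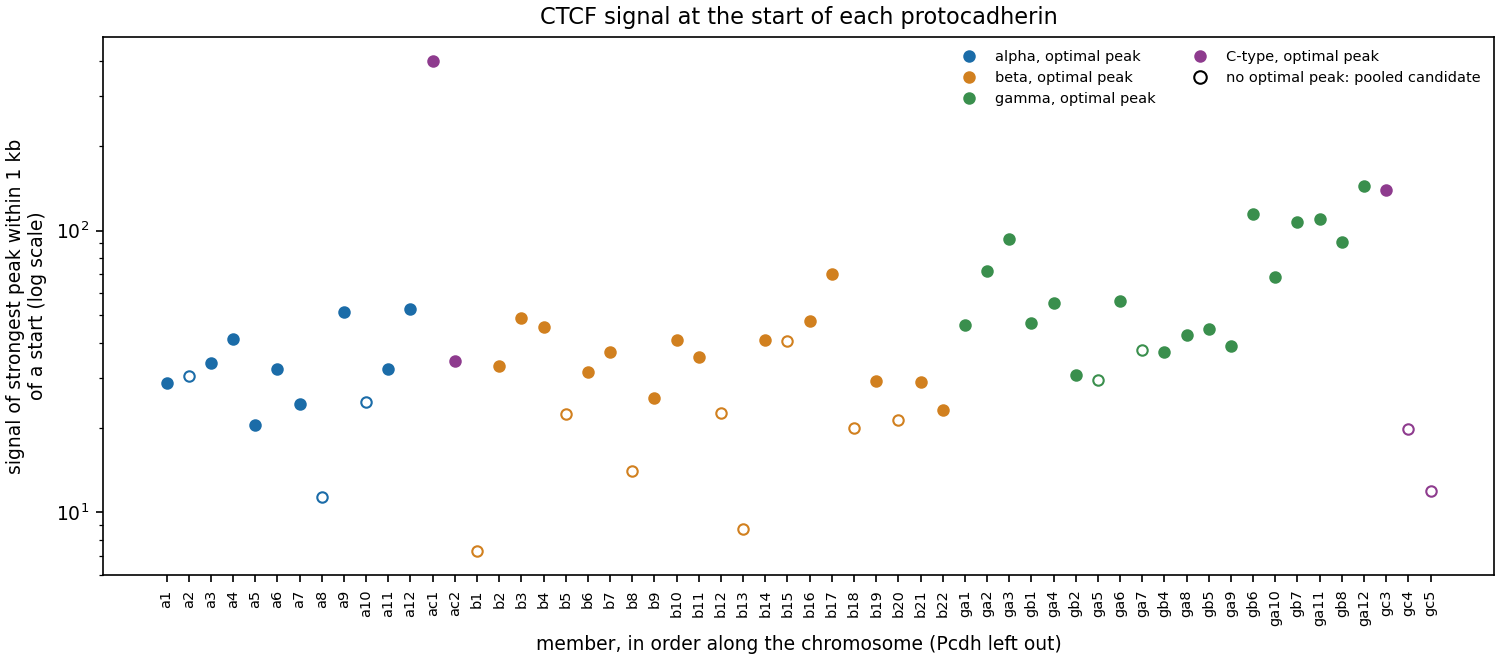
Signal of the strongest CTCF peak within 1 kb of a start (vertical axis, log scale, the caller's units) for each member in chromosomal order. Filled points are the 43 members with a peak of the optimal set, open points the 15 without one, placed at their strongest peak in the pooled list; Pcdhac1 stands highest at 398.4, and alpha and beta members lie at or below 70.2.

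The 5 C-type genes spanned nearly the whole range of the family. Pcdhac1, the first C-type gene after the alpha isoforms, had the strongest promoter peak of all members (signal 398.4, position 37089822 to 37090101), ranked 1822 in library 1 and 3243 in library 2, where rank 1 is the strongest of 300000 peaks. Pcdhgc3, a C-type gene with a role in dendrite branching, had a promoter peak of signal 139.5, ranked 21699 in library 1 and 20052 in library 2. Pcdhac2, the isoform needed for spacing of serotonergic axons, had a peak of signal 34.6. The libraries placed it at ranks 67132 and 36329, and it was not in the conservative set. Pcdhgc4, the isoform that supports survival of interneurons in mouse, and Pcdhgc5 had no optimal peak. Their strongest candidates in the pooled list, which was made before filtering, had signals of 19.8 and 11.9. That of Pcdhgc4 lay 94 bp past the start codon, inside its coding exon. Pcdhb1 was lower still at 7.32 and had no candidate in either library's own list. Pcdhac2, Pcdhb1, Pcdhgc4 and Pcdhgc5 are the 4 genes that the background above names as lacking the conserved element. Low values were not confined to them. The strongest candidates of Pcdhb13 (8.73) and Pcdha8 (11.3, inside its exon) were below that of Pcdhgc5. Pcdhac2, at 34.6, was above the alpha median of 32.4. The link between that element and these values was not tested.

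Alpha genes, the first subcluster, had low and similar signals (median 32.4, range 20.5 to 52.5). The highest were Pcdha12 (52.5, ranks 38030 and 37673 in libraries 1 and 2), Pcdha9 (51.3, ranks 43060 and 36004), Pcdha4 (41.3, ranks 48813 and 43361, from a peak inside its exon) and Pcdha3 (33.8, ranks 49149 and 56479). Below them came Pcdha6 (32.4), Pcdha11 (32.3), Pcdha1 (28.8), Pcdha7 (24.3) and Pcdha5 (20.5). Pcdha2, Pcdha8 and Pcdha10 had no optimal peak, with pooled candidates of 30.6, 11.3 and 24.6. The candidate of Pcdha2 thus exceeded the optimal peaks of Pcdha1, Pcdha5 and Pcdha7, so having a peak in the optimal set did not follow signal alone.

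Beta genes, which have no constant exons, had a median of 36.4 and a range of 23.0 to 70.2 over the 14 occupied members. Pcdhb17 was highest (70.2, ranks 32079 and 33294), followed by Pcdhb3 (48.8, ranks 43490 and 38096), Pcdhb16 (47.9, ranks 38929 and 44758) and Pcdhb4 (45.5, ranks 44729 and 40805). The other 10, Pcdhb2, Pcdhb6, Pcdhb7, Pcdhb9, Pcdhb10, Pcdhb11, Pcdhb14, Pcdhb19, Pcdhb21 and Pcdhb22, ran from 23.0 at Pcdhb22 to 41.0 at Pcdhb14. Beta held 8 of the 15 unoccupied members. Apart from Pcdhb1, their pooled candidates had signals of 8.73 at Pcdhb13, 13.99 at Pcdhb8, 19.98 at Pcdhb18, 21.2 at Pcdhb20, 22.4 at Pcdhb5, 22.5 at Pcdhb12 and 40.5 at Pcdhb15. The candidate of Pcdhb8 lay 205 bp past the start codon, inside its coding exon, and its candidate before the start codon had a signal of 7.63. Pcdhb5 was uneven between the libraries, at rank 57416 in library 1 and 179683 in library 2.

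Gamma genes outside the C-type had the highest median of the 3 subclusters, 56.0, with a range of 30.7 to 143.6. Among the Pcdhga genes the strongest were Pcdhga12 (143.6, ranks 19667 and 20853), Pcdhga11 (110.3, ranks 24326 and 24866), Pcdhga3 (93.3, ranks 25315 and 31440) and Pcdhga2 (71.7, ranks 33696 and 29434). Pcdhga1, Pcdhga4, Pcdhga6, Pcdhga8, Pcdhga9 and Pcdhga10 lay between 39.1 and 68.5. Among the Pcdhgb genes Pcdhgb6 (114.7, ranks 24171 and 23719), Pcdhgb7 (107.2, ranks 25129 and 24200), Pcdhgb8 (91.1, ranks 25407 and 29034) and Pcdhgb1 (47.1, ranks 45352 and 38238) led, followed by Pcdhgb5 (44.6), Pcdhgb4 (37.0) and Pcdhgb2 (30.7). The peaks of Pcdhgb6, Pcdhgb7, Pcdhga11, Pcdhgb8 and Pcdhga12 belong to promoters at the downstream end of the subcluster. Across the 17 occupied gamma members the Spearman correlation of signal with order along the chromosome was 0.46, and 0.53 and 0.48 with the signals of libraries 1 and 2. Over 9 alpha members it was 0.35, with 0.43 and 0.60 in the libraries, and over 14 beta members it was −0.29, with −0.16 and −0.20. These correlations are descriptions over neighbouring genes that share libraries.

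Pcdhga5 and Pcdhga7 had no optimal peak but did have one in the conservative set, with signals of 29.5 and 37.6, and so did Pcdhb15. The conservative set thus held a peak at 19 of 19 gamma members, but at 8 of 12 alpha, 10 of 22 beta (45.5%, 26.9 to 65.3) and 2 of 5 C-type members. In all, 46 of the 58 members were occupied in 1 or the other set. How many protein-coding genes were occupied in 1 or the other set, or in both, was not counted. The conservative set occupied 39 members in all, against 38.5% of protein-coding genes. Of the 43 members occupied in the optimal set, 36 were also occupied in the conservative set. All 15 members without an optimal peak had a candidate within 1 kb in the pooled list, and 14 of them had one in both libraries' lists. These lists are long, at 251251 and 300000 peaks, and the same shares over all protein-coding genes were not counted. The counts are therefore not shown to be particular to the members, and the candidates went down to a signal of 7.32 at Pcdhb1. A member without an optimal peak is therefore one whose candidate is not in the authors' optimal set, not one shown to lack CTCF.

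The member promoters differed in base composition. The ratio of observed to expected CpG in 1 kb around the start had a median of 0.69 in alpha, 0.59 in gamma, 0.67 in C-type and 0.38 in beta members, against 0.56 over protein-coding genes. Within subclusters it was 0.70 in occupied and 0.69 in unoccupied alpha members, 0.38 and 0.35 in beta, 0.58 and 0.64 in gamma, and 0.68 and 0.45 in C-type members. Stretches of 31 bases found more than once in the genome made up at most 28.2% of a start region (Pcdha5) and were present in all 12 alpha but only 5 of 22 beta members. Over the family their median share was 0 in both occupied and unoccupied members. By subcluster it was 11.2% in occupied and 5.08% in unoccupied alpha members, and 0% and 2.71% in gamma. In beta and C-type members it was 0% in both. The part of composition and repeated sequence in the signals was not tested.

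Summits kept a nearly fixed distance from the start codon. Of the 58 window peaks, 40 had their summit within 300 bp of a member's principal start, 8 lay in a member's first coding exon outside that distance, and 10 lay elsewhere. Of all protein-coding genes, 18.8% had a summit within 300 bp of the principal start and 7.17% in the first coding exon. These are shares of genes, so they are no direct background for the counts of peaks. The exon share also includes summits within 300 bp of a start, which the peak class leaves out. Measured from the start codon, 42 peaks lay before it, with summits at −350 to −95 bp and a median of −222 bp. Another 6 lay in the coding part of the first exon. Pcdhga12 and Pcdhb22 moved between these classes: by their annotated starts their peaks counted as first exon, but the summits were at −216 and −229 bp from the start codon, as in the other members. The median summit was at −185.5 bp in alpha, −225.5 bp in beta and −227 bp in gamma.

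**Figure D2:**
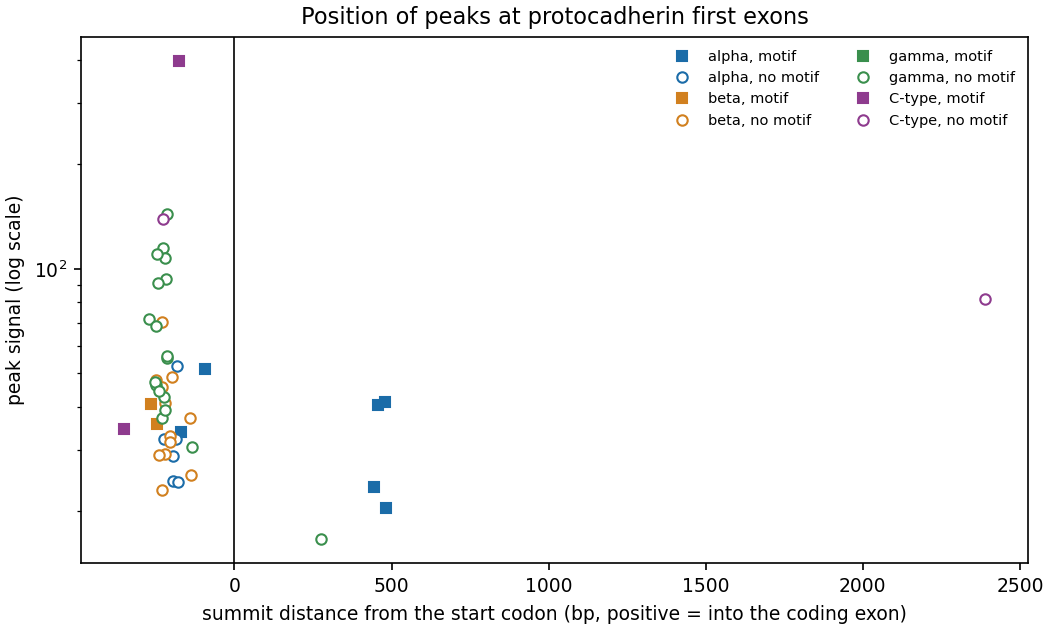
Distance of each summit from the member's start codon (horizontal axis, bp, negative is upstream) against peak signal (vertical axis, log scale), coloured by subcluster, with squares for peaks holding the CTCF core motif. The 42 peaks before the start codon stand at −350 to −95 bp and the 4 alpha exon peaks at 444 to 484 bp. Pcdhgc3 alone has a peak near the end of its exon, at 2390 bp.

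Peaks in the coding first exon were found in 6 of the 58 members: 4 alpha genes (Pcdha4, Pcdha5, Pcdha7 and Pcdha12), Pcdhga11 and Pcdhgc3. Of all protein-coding genes 3.47% had such a peak. Of the 307 with at least 2000 coding bp in that exon, as all members have, 45 did (14.7%). Both backgrounds include the protein-coding members, and the share of members was not above that of the 307. The alpha summits lay 444 to 484 bp after the start codon. Pcdha4 had the stronger peak in its exon (41.3 against 24.4 at its promoter), and it was also the stronger in each library. In Pcdha12 the promoter peak was stronger (52.5 against 40.6), and in Pcdha7 the pooled signals were 24.3 and 23.5. The libraries differed at Pcdha7: in library 1 the exon peak was the stronger (16.2 against 10.9), and library 2 had a promoter peak (13.4) and none in the exon. The Pcdha7 exon peak was the only window peak without an overlapping peak in 1 of the libraries, library 2. In the optimal set Pcdha5 had only the exon peak, of signal 20.5. The conservative set showed the reverse, with a promoter peak at Pcdha5 of signal 23.0 and no exon peak. The exon peaks of Pcdhga11 (16.6 against 110.3 at the promoter) and Pcdhgc3 (82.1 against 139.5) were the weaker of their pairs.

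The median signal at start sites was 1.36 times that in first exons in the optimal set and 0.730 times in the conservative set, so this order was not stable. The number of first exon peaks was 8 in the optimal set, 4 in the conservative set and 5 in the list of library 2 alone.

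The first exons of the subclusters also differed in where the CTCF motif occurred. The 14 bp CTCF core consensus was searched on both strands, with at most 2 mismatches. At least 1 match lay in the coding first exon of 42 of 58 members, and the share over other genes was not counted. Members have related sequence, so matches that line up are not independent of each other. In 11 of 12 alpha members, all but Pcdha2, the consensus had a match on the strand of the gene centred 453.5 to 552.5 bp after the start codon. In 7 of the 11 the match was centred at exactly 462.5 bp, and in 6 of the 11 it had 0 mismatches. Optimal peaks stood at 4 of these 11 matches, pooled candidates at 5 more, and neither at 2. These 5 candidates did not pass the authors' filter. Their signals ran from 7.07 at Pcdha1 to 22.2 at Pcdha6. Those of Pcdha1, Pcdha9 and Pcdha10 stood low among the 251251 pooled peaks, at ranks 249348, 222125 and 229181. The candidates are therefore not shown to be binding at these matches. In beta, by contrast, 13 members had a match on the opposite strand centred 2186.5 to 2210.5 bp after the start codon, a position chosen after the matches were seen. None of these 13 carried an optimal peak and 2 carried a pooled candidate. Gamma first exons held 22 matches, 14 of them on the opposite strand, with no optimal peak at any. Some of these lined up too: 5 of the 7 Pcdhgb members had an opposite-strand match centred 1889.5 to 1928.5 bp after the start codon, and Pcdhga7, Pcdhga8 and Pcdhga11 had one at 2075.5 to 2081.5 bp, positions again picked after the matches were seen.

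**Figure D3:**
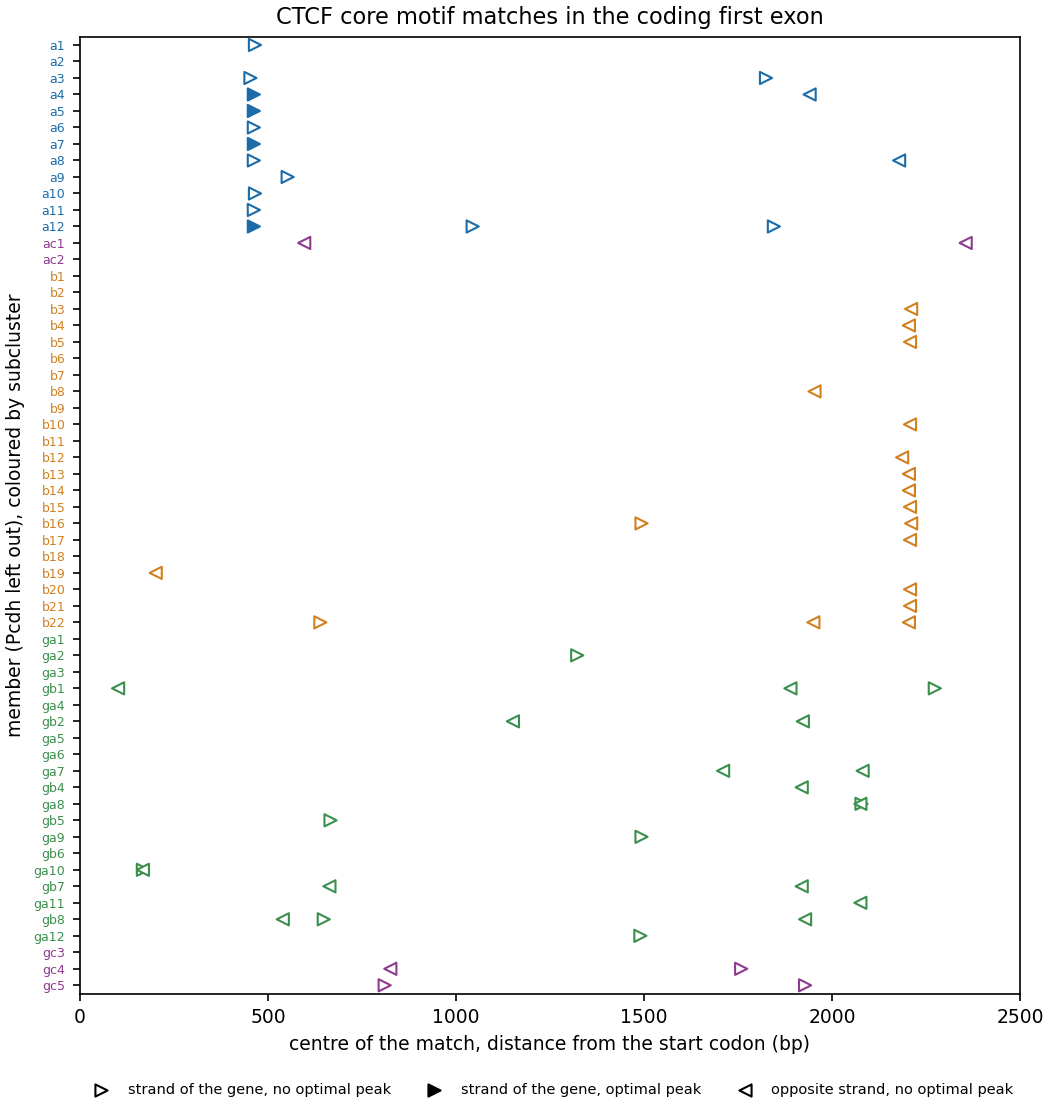
Matches to the CTCF core motif in the coding first exon of each member (rows), by distance of the match centre from the start codon (bp). Triangles point right for the strand of the gene and left for the opposite strand, and are filled where an optimal peak stands; the alpha matches line up near 462.5 bp and most beta matches lie at 2186.5 to 2210.5 bp, the latter all without a peak.

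Most promoter peaks lacked a close match to the core motif at their summit. Within 50 bp of the summit, 16 of the 58 window peaks had a match with at most 2 mismatches, where 65.4% of all optimal peaks had one. Of the 40 start site peaks 6 had one, against 35% of peaks at other protein-coding starts. These were at Pcdha3, Pcdha9, Pcdhb10, Pcdhb11, Pcdhac1 and Pcdhac2. None of the 17 gamma peaks before the start codon had one, although their median signal (56.0) was above that of the alpha (32.3) and beta (36.4) peaks before the start codon. With up to 3 mismatches, 23 of the 40 start site peaks matched, against 68.7% at other starts. Over the whole window 37 of 58 peaks matched at that limit, against 86.3% of all optimal peaks. All 23 start site matches were on the strand of the gene. Of the 42 peaks before the start codon, 25 matched, 24 on the strand of the gene and 1, at Pcdhb22, on the opposite strand. Regardless of peaks, 10 of 58 members had a match with at most 2 mismatches within 300 bp of the start, 8 occupied and 2 not, against 27.4% of protein-coding genes.

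Motif direction divided the window by position. All 10 matches (at most 2 mismatches) in peaks at a member's start or first exon were on the strand of the genes. All 6 matches in peaks elsewhere in the window were on the opposite strand: 2 between alpha and beta, 1 in the last shared gamma exon and 3 beyond gamma. As a background, 49.7% of motif-bearing optimal peaks had the motif on the plus strand, and 59.5% of those at other protein-coding starts had it on the strand of the gene. The list is small, with 16 matches in all.

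**Figure D4:**
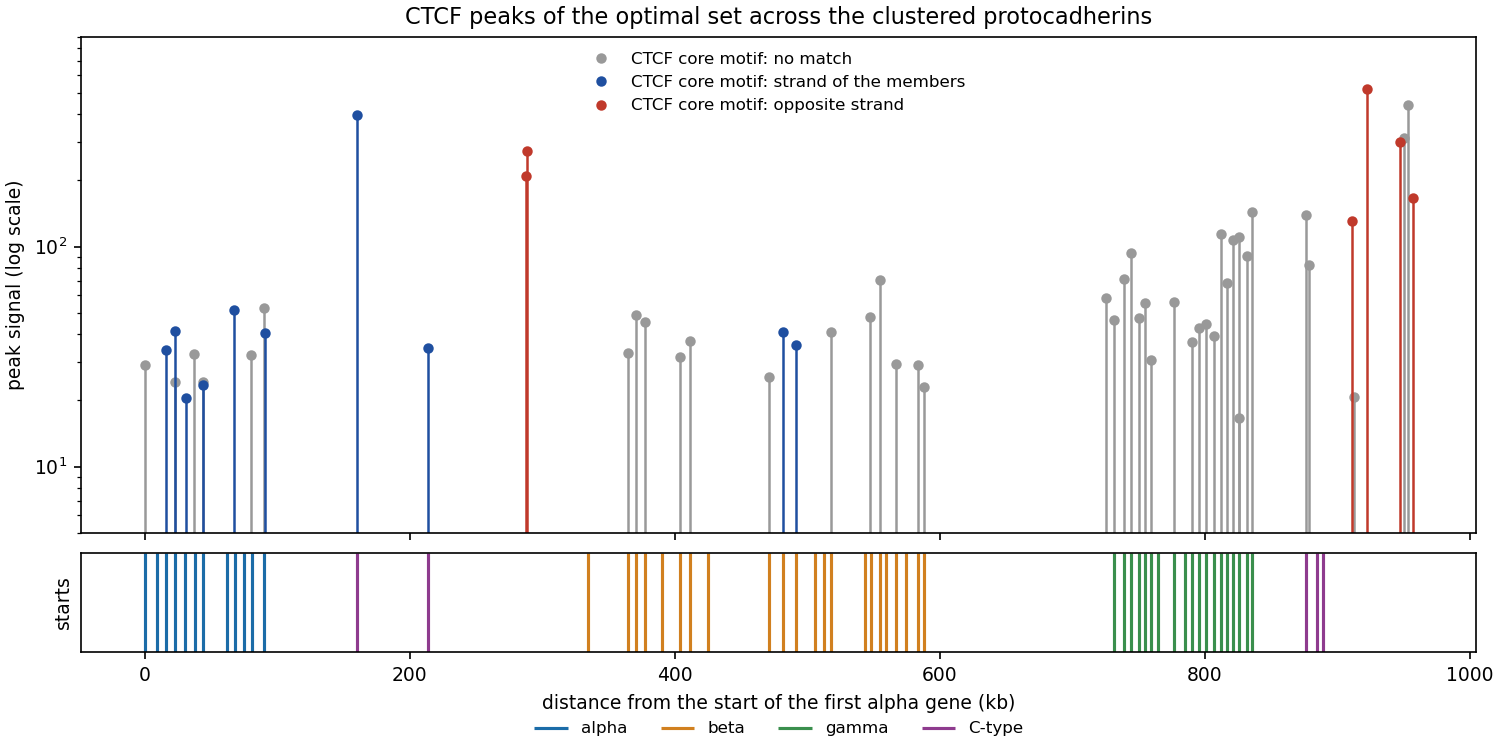
Signal of each optimal peak (vertical axis, log scale) by distance from the start of the first alpha gene (kb), with member starts below. Blue peaks hold the CTCF core motif on the strand of the members and red peaks on the opposite strand; the red peaks lie between alpha and beta and at or beyond the end of gamma.

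The strongest binding lay outside the promoters. Of the 10 strongest window peaks 7 were elsewhere than at a member's start or first exon, and the other 3 were the promoter peaks of Pcdhac1, Pcdhga12 and Pcdhgc3. The 10 peaks elsewhere had a median signal of 240.6, against 43.6 at start sites.

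A pair of peaks stood between alpha and beta, 29.8 and 30.8 kb past the end of the alpha genes. The first (37217390 to 37217596) had a signal of 208.4 and ranks of 13389 and 15900 in libraries 1 and 2. The second (37218309 to 37218530) had a signal of 272.8 and ranks of 8876 and 10283. Both held the motif with 1 mismatch on the strand opposite to the genes, 941 bp apart from summit to summit. An enhancer with a pair of reversed CTCF sites is known downstream of the alpha constant exons in mouse; its coordinates were not compared here. The annotation places both peaks in introns of Gm42416, Gm37013 and Gm37388, models that run through several subclusters.

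At the other end, the last exon shared by the gamma genes held a peak of signal 131.1 (37841455 to 37841545), ranked 21591 and 21602, with the motif reversed. Beyond it 5 strong peaks lay in introns of Diaph1, which encodes an actin-nucleating formin and is read in the opposite direction. The nearest, 10.5 kb past the gamma genes (37852119 to 37852511), was the strongest of the window, with a signal of 521.8 and ranks of 138 and 252. The others had signals of 300.5 (37877416 to 37877633), 313.2 (37880273 to 37880545), 438.4 (37883482 to 37883864) and 166.0 (37887110 to 37887277), at 35.6, 38.5, 41.8 and 45.3 kb. The motif was reversed in the peaks of signal 521.8, 300.5 and 166.0, the last with 0 mismatches, and was not found with 2 mismatches in the other 2.

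The remaining peaks elsewhere were a weak one just after gamma (20.7) and one of signal 58.6 at the start of the non-coding gene 3222401L13Rik, between beta and gamma. The latter was uneven between the libraries, at rank 30224 in library 1 and 63111 in library 2. Diaph1 had a peak of signal 400.8 at its own start, which lies outside the window. The other genes of the window with a peak at their start shared it with a member: Gm38225 and Gm42416 with Pcdha4, Gm37753 with Pcdha6, Gm10545 with Pcdha12, Gm37118 with Pcdhga1, Gm37165 with Pcdhga8 and Gm26672 with Pcdhga11. At these promoters a peak cannot be assigned to the member alone.

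The count of occupied members was the same for each promoter definition tried, none of them narrower than 500 bp around a start. Pcdha5 was counted through its exon peak, 484 bp past its start and just inside that window. It was 43 with 500 bp around a start (32.3% of protein-coding genes), with 2.5 kb (49.2%) and with 1 kb around the principal start alone (31.8%). With the 62686 strongest peaks of library 1 it was 44 (40.8% of protein-coding genes), and with those of library 2 it was 46 (40.4%).

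The optimal set was itself selected for agreement of peak ranks, so the following values describe its peaks and are no independent measure of repeatability. Of 58 peaks, 57 overlapped a peak in both libraries, and 46 were among the 62686 strongest of both. Over those 57 the Spearman correlation of ranks was 0.81, given as a description. By member, 40 of the 58 had a peak among the 62686 strongest in both libraries, 4 in library 1 only, 6 in library 2 only and 8 in neither. The same split over all protein-coding genes was not counted, so it is not shown to be particular to the members.

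**Figure D5:**
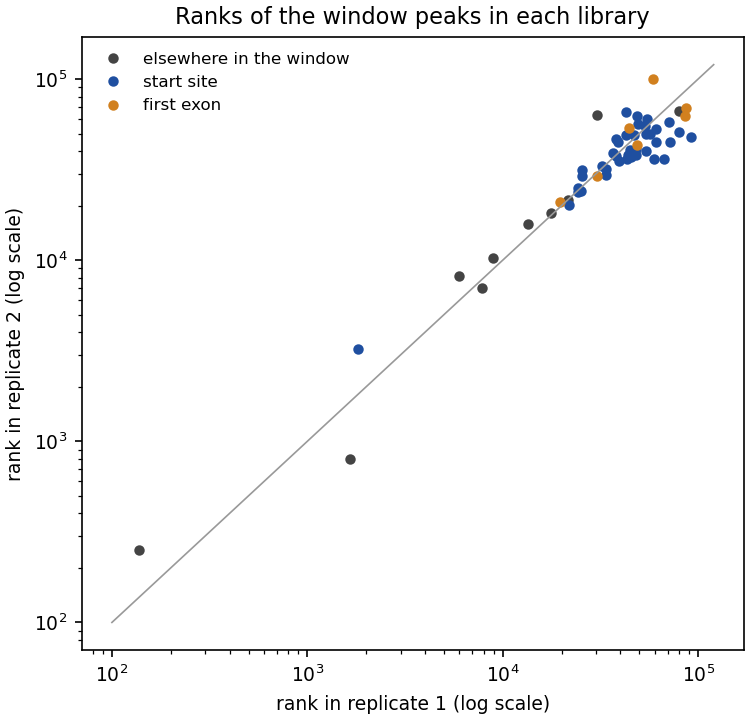
Rank of each of 57 window peaks in library 1 (horizontal axis) and library 2 (vertical axis), both on log scales, with the diagonal of equal ranks. Peaks elsewhere in the window and Pcdhac1 reach the best ranks, and start site and first exon peaks form the cloud at weaker ranks, with more scatter.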

How the data were processed

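All files are narrowPeak lists on mm10. The deposited signal value is a score whose scale is not stated, and the deposited summit offset in bp gave each summit. Per the deposited descriptions of the files, each library has its own list (300000 peaks each), the reads of both gave a pooled list (251251), and the authors derived conservative (59979) and optimal (62686) sets by irreproducible discovery rate. Sources used here do not give the aligner, caller or threshold. Without read counts in the files, depth is unknown and intervals cover counting error only. Control libraries were not used here.

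Members were matched to GENCODE vM21, 56 by symbol and 2 (Pcdha10 and Pcdha11) by RefSeq start codon position, on the GRCm38 assembly. Signals were compared within lists and ranks between libraries. The motif, at most 2 mismatches within 50 bp of the summit, was searched on both strands. Motif search and promoter rule were tested on simulated data. Named with values are all C-type genes, the 4 strongest and every unoccupied member of alpha, beta, Pcdhga and Pcdhgb, the 10 strongest window peaks, and other genes with a peak at their start. Members, lists and this rule were chosen with earlier results of these data known. Python 3.11.15, NumPy 2.4.6, pandas 2.3.3, SciPy 1.17.1 and matplotlib 3.10.9 were used. Some results are not reported here.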

Additional observations from a re-analysis of the deposited data

How the results depend on the processing

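Of 82 alternatives, 64 were counted as close to the reported value, 16 as moving it and 2 as turning its direction. The 2 were both for the signal ratio given below. Shares counted as close all lay inside the Wilson interval of the reported share. These intervals are wide, so close does not mean unchanged. In the conservative set, a fall from 60 to 40% of C-type and from 63.6 to 45.5% of beta members counted as close. So did a rise from 62.5 to 80.6% of motifs on the strand of the genes with at most 3 mismatches. For counts, the limit was a fold of 1.5. The majority strand of the motifs also changed, without being counted as turned. The share on the strand of the genes fell from 62.5% (10 of 16) to 45.5% (5 of 11) in the conservative set. Among the 31343 strongest it was 1 of 7. With the 31343 strongest optimal peaks only, occupancy was 13.8% of all members, 0% of alpha, 0% of beta and 31.6% of gamma, the window held 17 peaks, 7 at start sites and 2 in first exons, and 14.3% of motifs were on the strand of the genes. The conservative set gave 100% of gamma, 66.7% of alpha, 45.5% of beta and 40% of C-type members, and 4 first exon peaks. A start distance of 500 bp gave 4 first exon peaks, and 200 bp put 1 peak in the upstream flank. The ratio of median signal at start sites to first exons turned from 1.36 to 0.730 in the conservative set and 0.977 among the 31343 strongest; the cause was not tested. With each library alone, occupancy was 75.9 to 79.3% of members, 66.7 to 91.7% of alpha, 59.1 to 68.2% of beta, 100 to 100% of gamma and 40 to 60% of C-type, with 57 to 58 window peaks, 40 to 44 at start sites, 5 to 8 in first exons, 9 to 9 elsewhere and 0 to 0 in the flank, a signal ratio of 1.10 to 1.24 and 58.3 to 64.7% of motifs on the strand of the genes. Classes by the start codon were chosen after the data were seen. No paired analysis was possible because there is 1 group of 2 libraries. Depth is unknown, so the absence of a peak is not shown to be absence of CTCF.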

Other observations

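The protocadherins outside the clusters were described by the same rule. Of 12 such genes, 9 had a summit within 1 kb of a start (75%, 95% Wilson interval 46.8 to 91.1, against 39.8% of protein-coding genes), at a median signal of 88.8. Pcdh1 was highest at 554.9, ranked 72 and 111 in the libraries. Pcdh11x, Pcdh12 and Pcdh20 had no peak.

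Among genes for factors known to act on the clusters, Stag1, a cohesin subunit, had the highest promoter signal at 340.2, and Dnmt3b, a DNA methyltransferase, had 234.8. Ctcf itself had a signal of 60.2. A count over this list is not given.

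The pooled list held 137 candidates in the window, of which 79 were outside the optimal set. Of these 79, 15 had the core motif, and 5 of those lay in alpha coding first exons on the strand of the gene.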
